A study of Mus musculus with 10 samples.

Results

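Cytosolic ribosomal proteins are the protein components of the ribosomes that translate nuclear mRNAs outside mitochondria. Their genes were followed here in the skin of Tsk2 mice at 4 months and at 1 month of age. Members were the array probes whose platform gene symbol is Rpl or Rps with a number, and an optional final letter, or Rplp0, Rplp1, Rplp2 or Rpsa. Kinase genes named Rps6k and symbols of pseudogenes were left out. The rule gave 128 of 41174 probes and 74 of 19532 gene symbols, of which 47 genes belong to the large subunit and 27 to the small one. All 74 genes and 123 of the 128 probes had values in at least 3 skin samples of each age. Rps3a1 and Fau, which also encode ribosomal proteins, fall outside the symbol rule and are described apart.

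The groups were Tsk2 skin at 4 months and Tsk2 skin at 1 month, with 4 skin samples each on 10 arrays, because 1 sample per age has 2 arrays. Tsk2 mice have tight, thickened skin and a mutation in the collagen gene Col3a1, and serve as a scleroderma model. The labels call the mice transgenic, the series' design text writes Tsk2/+, and both ages carry the allele. No result below separates the mutation from age, since wild-type skin was not analysed here. Sample titles carry ID numbers, 3 at 4 months and 2 at 1 month, and none occurs at both ages. Age therefore cannot be told apart from other differences between those numbers. The labels do not state that each sample is a separate animal; p-values then reflect only the sample-to-sample spread, part of which may be technical.

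Each value is a log2 ratio of skin RNA over the RNA of a cell-line reference named UMR, which was in the other dye of every array. A ratio places a gene in skin relative to the same gene in the reference, so ratios of different genes are not relative levels of their mRNAs. Which dye is the numerator is not stated in the deposited table. The sign used here, with positive values for skin above reference, is the likely one: epidermal and skeletal muscle genes then lay above 0 on all 10 arrays and cell division genes below 0. With the other sign every difference would turn round.

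A mature ribosome holds 1 copy of most of these proteins, and the proteins are made in matched amounts. Their mRNAs begin with a C followed by a run of pyrimidines, the 5′ TOP motif, through which the TOR kinase pathway controls their translation. Cells that grow and divide use much of their transcription for ribosomes, and in skin the growing hair follicle and the basal epidermis are such sites. Mutations in single ribosomal protein genes cause Diamond-Blackfan anaemia in people, and in mice they cause dark skin, belly spots or skeletal defects.

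The sequences at the start of the genes are shown first. RefSeq promoter entries of build GRCm38.p6, with 250 bases before and 50 after the start, were found for 59 of the 74 genes. Windows of 50 bases before and 20 after the start are shown for 5 genes that fell at 4 months and for Rpl3l, a paralog that did not, written 5′ to 3′ on the strand of the gene. All are on the minus strand except Rpl3l, which is on the plus strand and has 2 entries: the first is shown, and the second, chr17:24732635-24732704, held no run of the kind marked below. Capitals mark runs of a C and at least 4 further pyrimidines that open within 20 bases of the annotated start.
Rps26, chr10:128626487-128626556: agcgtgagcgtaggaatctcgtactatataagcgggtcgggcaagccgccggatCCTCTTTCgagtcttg
Rpl15, chr14:18270967-18271036: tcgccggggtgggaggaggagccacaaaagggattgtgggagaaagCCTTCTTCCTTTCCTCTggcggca
Rpl41, chr10:128549149-128549218: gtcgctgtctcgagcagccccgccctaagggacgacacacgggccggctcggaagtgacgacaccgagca
Rps6, chr4:86857348-86857417: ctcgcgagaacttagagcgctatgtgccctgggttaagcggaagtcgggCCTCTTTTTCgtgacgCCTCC
Rpl13a, chr7:45128726-45128795: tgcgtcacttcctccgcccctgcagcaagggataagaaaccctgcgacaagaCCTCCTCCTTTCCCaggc
Rpl3l, chr17:24727776-24727845: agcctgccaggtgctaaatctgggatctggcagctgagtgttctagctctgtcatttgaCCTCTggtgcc

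Such a run was found in 81.4% of the 59 genes and in 51.4% of the 27025 genes with a promoter entry. Rpl41 had none in its window. CTTTCC on the gene's strand was found in 42.4% of the ribosomal protein entries, against 16% of all genes. It holds only pyrimidines and can lie inside such a run, as in Rpl15 and Rpl13a. CGGAAG, on either strand, was in 71.2% against 18.8%. A gene with several annotated starts was counted if any of them held the letters. Among the 9 genes with an entry that passed the test between ages, 7 held the run, as did 41 of the 50 that did not pass.

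Ribosomal protein genes of both subunits were lower at 4 months. Of the 74 genes, 72 lay below 0 in the difference between ages, where 6440 of all 13501 genes tested did. Of the 74, 14 fell past the test and none rose past it. The test was limma over all 13501 measured genes with Benjamini-Hochberg adjustment and a threshold of 0.05, with the ID number as a random block. Over all genes 3.06% were called lower and 4.19% higher, whereas 18.9% of the ribosomal protein genes were called lower. The median difference was -0.75, with quartiles of -0.90 and -0.57, against a median of 0.03 over all genes tested. In this bulk tissue, fewer cells of a ribosome-rich type and less ribosomal protein mRNA per cell cannot be told apart.

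The shift was similar in size in the large subunit (median -0.72, 8 of 47 genes called) and in the small subunit (median -0.78, 6 of 27 called). The samples of the 2 ages did not overlap, and were lower at 4 months, in 33 of the large-subunit and 15 of the small-subunit genes. That is 64.9% of the 74, where 10.2% of all genes tested had such an order. The spread between samples was narrower than for most genes: the median SD was 0.26 at 4 months and 0.27 at 1 month, against 0.38 and 0.34 over all genes. In all, 51 of the 74 genes were lower at an unadjusted p under 0.05, the 14 called ones among them. Over all genes tested, 1496 of 13501 were lower at that p.

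The median of the 74 genes was -0.81, -0.96, -0.80 and -0.64 in 4-month samples 1 to 4, against -0.06, -0.11, 0.05 and -0.04 in 1-month samples 1 to 4. Every 4-month median lay below every 1-month median. Within the 4-month group, sample 4 held the highest value of 42 genes and sample 2 the lowest value of 34. The median over all genes tested stayed between -0.0008 and 0.09 in the 4-month samples and between 0.00 and 0.03 in the 1-month samples.

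**Figure D1:**
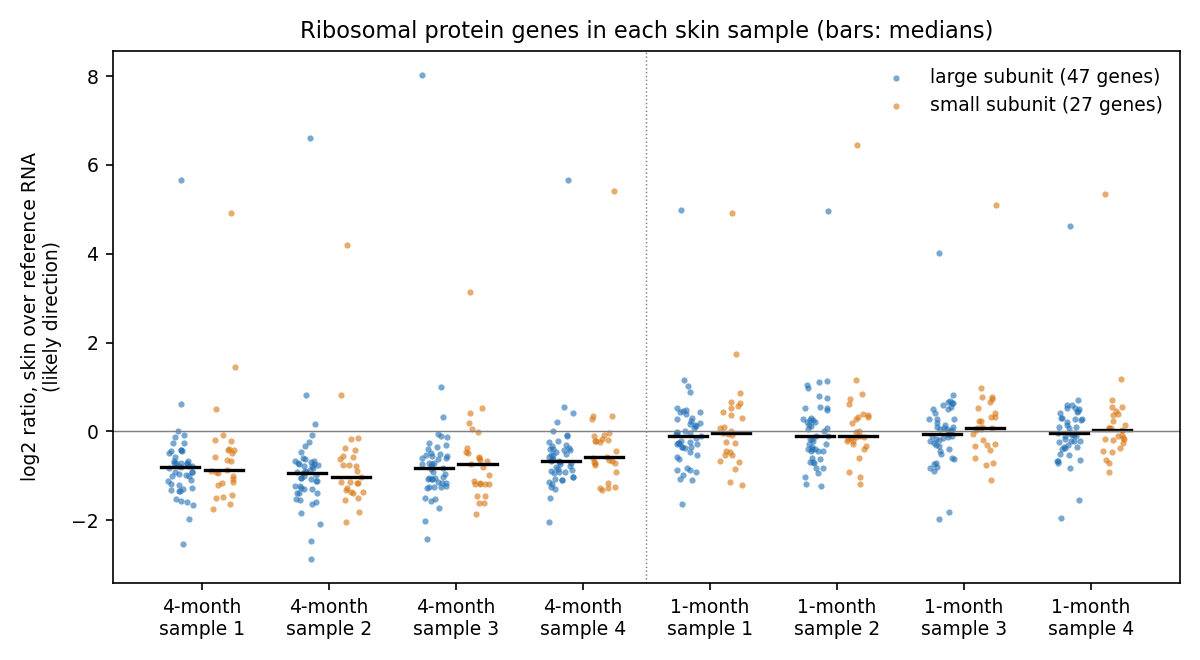
Log2 ratio of skin over reference RNA (vertical axis, likely direction) of each of 74 ribosomal protein genes in 4 skin samples at 4 months (left) and 4 at 1 month (right), each point being a gene and each bar the median of a subunit. The medians of the 4-month samples lie between -1.03 and -0.57 and those of the 1-month samples between -0.11 and 0.09, and the points near the top are Rpl3l (large) and Rps4l (small).

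The calls depended on single samples and on the ID number. Leaving out 1-month sample 1 ended all 14 calls and raised the correlation within ID numbers to 0.614, against 0.313 with all samples, while the median over the 74 genes stayed at -0.75. Between 10 and 13 ribosomal protein genes passed without another 1-month sample, and 4 or 5 without 4-month sample 1, 2 or 3. Without 4-month sample 4, 39 passed in either direction, and 51.4% of the 74 were called lower. Without the block 41 passed, of which 40 were lower and Rpl3l was higher, and with means per ID number, 3 against 2, none passed (39 were lower at an unadjusted p under 0.05). The share called lower over all genes, 3.06% in the reported fit, moved in the same direction. It was 0.43% without 1-month sample 1 and 1.43% to 1.73% without 4-month sample 1, 2 or 3. Without 4-month sample 4 it was 7.45%, and without the block 6.73%.

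Rps26 had the largest fall among the called genes of the small subunit. It encodes a protein near the channel through which mRNA leaves the ribosome and is mutated in some patients with Diamond-Blackfan anaemia. It lay at -1.63, -1.81, -1.85 and -1.28 in the 4-month samples and at -0.53, -0.39, -0.29 and -0.43 in the 1-month samples. The ages were far apart, and the spread at 1 month was small (SD 0.10, n = 4). The difference was -1.20 ± 0.22 (SE; limma adjusted p = 0.0164).

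Rps6 is the ribosomal protein that S6 kinase phosphorylates when TOR is active. Its ratios were -1.44, -1.27, -1.46 and -1.32 at 4 months and -0.53, -0.21, -0.30 and -0.18 at 1 month. The groups did not overlap and the difference was -1.07 ± 0.21 (SE; limma adjusted p = 0.0186). Its value rests on 1 of 2 probes: the other had values on 7 of 10 arrays, and with it the difference was -0.57 (limma adjusted p = 0.409), -0.17 with exact zeros kept (0.850) and -0.40 with means per ID number (0.657).

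Rps24, also a Diamond-Blackfan gene, fell by 1.09 (limma adjusted p = 0.0335). It lay at -0.58, -0.77, -1.11 and -0.21 at 4 months and at 0.54, 0.37, 0.54 and 0.38 at 1 month. The 1-month samples were close together and above the reference, and the 4-month samples were spread below it. Its 3 probes all pointed down, with differences between -1.62 and -0.70.

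Rps3, which lines the mRNA entry channel and has a second role in DNA repair, lay at -0.42, -0.76, -0.49 and -0.23 at 4 months and at 0.37, 0.38, 0.74 and 0.56 at 1 month. It fell by 0.97 (limma adjusted p = 0.0325). Rps10, another Diamond-Blackfan gene, fell by 0.89 (0.0354). Rps25, known for its need in translation from internal entry sites, had the smallest fall among the 14 called genes, at -0.78 ± 0.19 (SE; 0.0405). It lay at -0.08, -0.14, 0.07 and -0.09 at 4 months and at 0.67, 0.73, 0.78 and 0.70 at 1 month. The samples within each age were nearly level. With exact zeros kept, the Rps25 difference was -0.47 (limma adjusted p = 0.0178). Rps25 was called in only 8 of the 21 other settings of the fit. Its call was lost on leaving out any single sample other than 4-month sample 4.

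In the large subunit, Rpl15 had the largest called fall. It encodes a core protein of the subunit and is another Diamond-Blackfan gene. It lay at -1.28, -1.23, -1.51 and -1.08 at 4 months and at 0.15, -0.61, 0.09 and 0.08 at 1 month. At 1 month, sample 2 lay below the others, which sat together, yet it was still above every 4-month sample. The difference was -1.19 ± 0.27 (SE; limma adjusted p = 0.0318).

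Rpl41, which encodes a very short peptide that bridges the subunits, lay at -1.32, -1.63, -1.22 and -1.18 at 4 months and at -0.004, 0.06, -0.44 and -0.30 at 1 month. It fell by 1.16 (limma adjusted p = 0.0204). Rpl13a, which in human cells also takes part in the translational silencing of inflammatory mRNAs, lay at -0.44, -0.67, -0.54 and -0.39 at 4 months and at 0.40, 0.55, 0.51 and 0.59 at 1 month. It fell by 1.01 (0.0196), and the gap between the ages was wider than the spread within either. The calls of Rpl41, Rpl13a, Rps26 and Rps6 were lost without 1-month sample 1 and without no other single sample.

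Rpl29, whose protein binds heparin and whose loss makes mice small, fell by 1.13 (limma adjusted p = 0.0303). It lay at -0.79, -0.75, -0.74 and -0.09 at 4 months and at 0.43, 0.30, 0.83 and 0.70 at 1 month. Its 4 probes agreed, with differences between -1.21 and -1.04, and 3 of them were called. Rpl7 (-1.10), Rpl3 (-1.05), Rpl23a (-1.03) and Rpl32 (-1.002) also fell, with limma adjusted p-values between 0.0350 and 0.0463. In the 21 other settings of the fit, Rpl7 and Rpl23a were called in 13 each, Rpl32 in 7 and Rpl3 in 5. The call of Rpl3 was lost on leaving out any single sample other than 4-month sample 4. Rpl3 lies close to the peptidyl transferase centre, and Rpl23a lies at the exit of the nascent peptide. Their ages did not overlap either.

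Rpl10a had the largest difference below 0 among the 74 genes, at -1.29 ± 0.43 (SE), and did not pass (limma adjusted p = 0.102). It lay at -0.41, -0.86, -1.52 and -0.63 at 4 months and at 1.16, -0.35, 0.50 and 0.60 at 1 month. The ages were separated by a narrow gap between 4-month sample 1 and 1-month sample 2, and the values within each age spread over more than 1 unit.

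**Figure D2:**
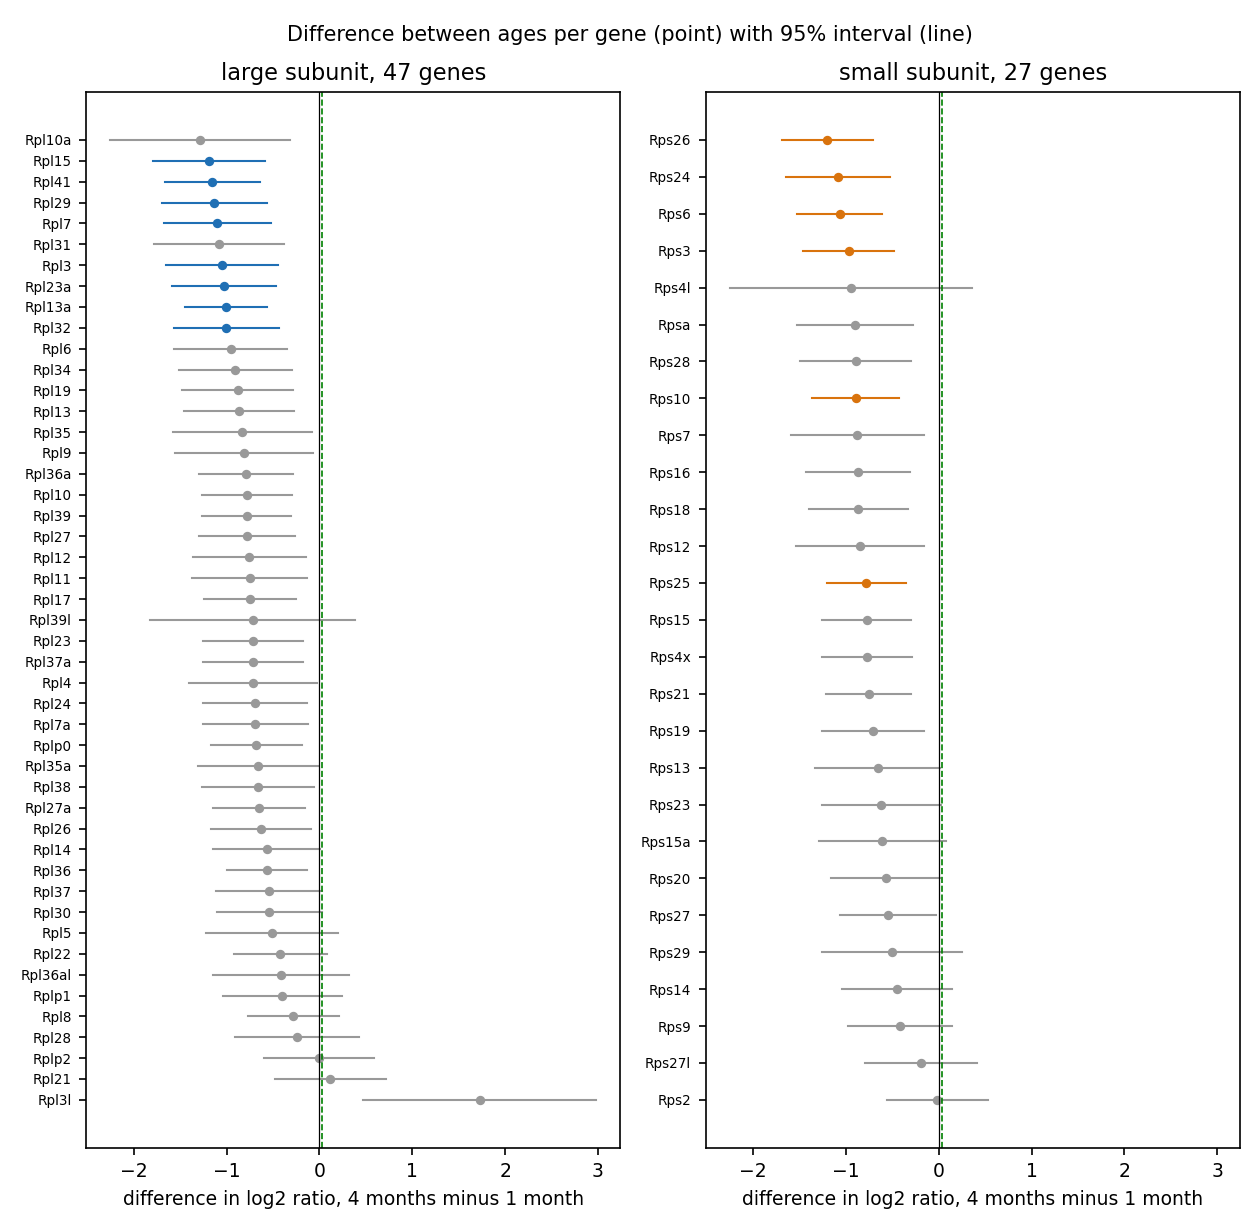
Difference in log2 ratio, 4 months minus 1 month (horizontal axis), of each ribosomal protein gene of the large (left) and small (right) subunit, with its 95% interval as a line, ordered by difference. Coloured genes passed the limma test, grey ones did not, the dashed line is the median of all genes tested at 0.03, and 72 of 74 points lie left of 0.

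Several members were listed for their known mutant phenotypes in skin or blood. Of that list only Rps26 passed, as given above, and the following did not. Rps24, Rps10 and Rpl15 were not on the list and were named because they passed. The list thus does not hold every Diamond-Blackfan gene. Rps19 and Rps20, whose mutations darken mouse skin through p53 in keratinocytes, differed by -0.71 and -0.57 (limma adjusted p = 0.109 and 0.219). Rps19 lay at -0.38, -1.03, -0.99 and -0.67 at 4 months and at 0.09, -0.33, 0.07 and 0.07 at 1 month, without overlap. Rps20 overlapped between ages. Rpl24, mutated in the mouse belly spot and tail, and Rpl38, mutated in the mouse tail short, differed by -0.69 and -0.66 (0.124 and 0.166), and neither overlapped.

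Rpl5 and Rpl11, which bind Mdm2 with the 5S RNA and so restrain it, differed by -0.51 and -0.75 (limma adjusted p = 0.368 and 0.129) and overlapped between ages. Rps14, lost in human 5q- syndrome, differed by -0.45 (0.340), and Rpl35a, a Diamond-Blackfan gene, by -0.66 (0.194). Rpsa, whose protein is also a laminin receptor, differed by -0.90 (0.0842), and its ages did not overlap. Rps23 differed by -0.62 (0.219). The 95% intervals of Rpl5, Rps14 and Rps23 included 0.

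The 3 stalk proteins, which recruit elongation factors to the ribosome, had differences of unlike size. Rplp0, the base of the stalk, differed by -0.68 (limma adjusted p = 0.0921) and its ages did not overlap. Rplp1 differed by -0.40 and Rplp2 by -0.002, and neither passed (0.439 and 0.997). Rplp2 lay at -1.01, -0.78, -0.84 and -0.52 at 4 months and at -1.08, -1.03, -0.79 and -0.23 at 1 month. The samples of the 2 ages were mixed. No test of the difference between stalk members was run.

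The 5 members of each subunit at the top of the order of differences did not pass. Beside Rplp2 and Rpl3l, in the large subunit these were Rpl8 (-0.28), Rpl28 (-0.24) and Rpl21 (0.12), and in the small subunit Rps2 (-0.02), Rps27l (-0.19), Rps9 (-0.42), Rps14 (-0.45) and Rps29 (-0.50). Their limma adjusted p-values ran between 0.340 and 0.976. Rps2 lay at -1.15, -1.17, -1.18 and -0.45 at 4 months and at -0.85, -0.91, -1.09 and -0.92 at 1 month. The 4-month sample 4 was the highest of all and the other 4-month samples the lowest.

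Rpl21, mutated in a human hereditary hair loss, was the only gene among 37 with several probes whose probes had opposite signs. Its probes differed by 0.68 and -0.44, and neither passed. The gene value of 0.12 is the mean of the 2. Of the 123 probes tested singly, 14 were called lower, 8 in the large and 6 in the small subunit, where 2.31% of all probes tested were. These 14 probes do not match the 14 called genes one to one. They held 3 probes of Rpl29 and 1 of Rps21, which was not called as a gene. The called genes Rpl3, Rpl32 and Rps25 had no called probe. Ribosomal protein genes have many processed pseudogenes of near-identical sequence, so a probe may also read transcripts of other loci.

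Some ribosomal proteins have a second gene. Rpl3l replaces Rpl3 in skeletal and heart muscle. It lay at 5.66, 6.61, 8.03 and 5.65 at 4 months and at 4.98, 4.96, 4.02 and 4.63 at 1 month, and the ages did not overlap. Its difference was 1.73 ± 0.56 (SE; limma adjusted p = 0.0945), and Rpl3 fell by 1.05. Rpl3l minus Rpl3 was higher at 4 months by 2.92, with a mean of 8.48 ± 1.32 at 4 months and 5.55 ± 0.60 at 1 month (SD, n = 4 each; two-sided exact permutation p = 0.0286, the smallest that 4 against 4 can give, and 0.143 adjusted over 5 pairs). The permutation takes the 8 samples as exchangeable and does not account for shared ID numbers.

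In the difference between ages, 27 of 30 genes of the skeletal muscle list lay above 0. Unlike Rpl3l, the list had sample medians that overlapped between ages. Its median over 30 genes was 5.14, 5.68, 6.69 and 5.17 in the 4-month samples and 4.43, 5.75, 4.24 and 4.42 in the 1-month samples, and 6 of 30 genes rose. With the mean of that list as a covariate, Rpl3l differed by 0.71 (limma adjusted p = 0.416) and no ribosomal protein gene passed, while the median over the 74 genes was -0.73. The part of muscle in these results was not tested beyond that.

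Rpl39l, a paralog used in testis, differed by -0.72 and Rpl39 by -0.78. Rps4l differed by -0.95 and Rps4x by -0.78. Rps27l, which p53 induces, differed by -0.19 and Rps27 by -0.55, and Rpl36al by -0.41 and Rpl36a by -0.79. None of these 8 genes passed, and the difference between a paralog and its counterpart had exact permutation p-values between 0.171 and 0.971 (two-sided, 4 samples per age).

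**Figure D3:**
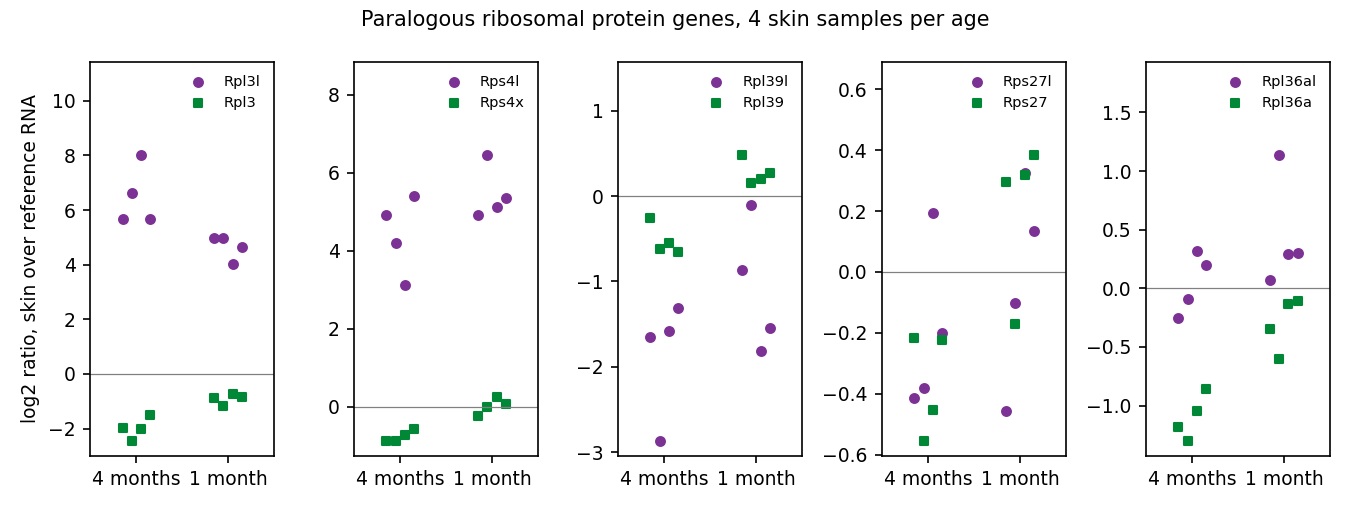
Log2 ratio of skin over reference RNA (vertical axes, with a scale of its own in each panel) of 5 paralogs (circles) and their counterparts (squares) in 4 skin samples at 4 months (left in each panel) and 4 at 1 month (right). Rpl3l lies higher and Rpl3 lower at 4 months, without overlap, while Rps4l and Rpl39l overlap between ages.

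The other parts of the translation machinery were compared as lists. Their calls are to be read against the 3.06% called lower and 4.19% called higher over all genes. Of 6 ribosome-related genes outside the symbol rule all lay below 0 (median -0.66), between -0.98 for Rpl22l1 and -0.07 for Rsl24d1. Not all 6 encode proteins of the ribosome itself. Rps3a1 fell by 0.80 (limma adjusted p = 0.0411). Fau, which encodes a ribosomal protein fused to a ubiquitin-like domain, differed by -0.72 (0.0720). Of 18 translation factors and related genes known for TOP mRNAs, 14 lay below 0 (median -0.46). Npm1, a nucleolar chaperone of ribosome assembly, fell by 1.27 (0.0280) and Eef1a1, which carries aminoacyl-tRNAs to the ribosome, by 1.14 (0.0472).

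The list of other translation factors was mixed. Of 37, 1 fell and 3 rose (median -0.12). Eif3i, a subunit of the scaffold factor that prepares the small subunit, fell by 0.89 (limma adjusted p = 0.0428). Eef2k, the kinase that blocks elongation, rose by 1.00 (0.0276), the helicase gene Eif4a2 by 1.25 (0.0168) and the cap-binding gene Eif4e3 by 1.46 (0.0329). Genes that make and assemble rRNA lay mostly below 0. This held for 14 of 15 genes of RNA polymerase I and its factors (median -0.38), with only Taf1d called (6.67%). It also held for 49 of 57 ribosome assembly genes (median -0.43). Only Nhp2 was called there (1.75%), a share below the 3.06% called lower over all genes.

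Mitochondrial ribosomal proteins, which build the separate ribosome inside mitochondria, were compared as a contrast. Of 78 genes 25 lay below 0, none was called lower and 1 was called higher, Mrps34 by 1.04 (limma adjusted p = 0.0329). At an unadjusted p under 0.05, 11 genes differed, of which 1 was lower. The ages did not overlap in 12 genes that were higher and 4 that were lower. Over all 13501 genes tested, 3279 differed at that p, of which 1496 were lower. Without overlap between ages, 1477 of all genes were higher and 1372 lower. Their median difference was 0.20. The sample medians lay between -0.11 and 0.41 at 4 months and between -0.16 and 0.07 at 1 month, and overlapped.

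**Figure D4:**
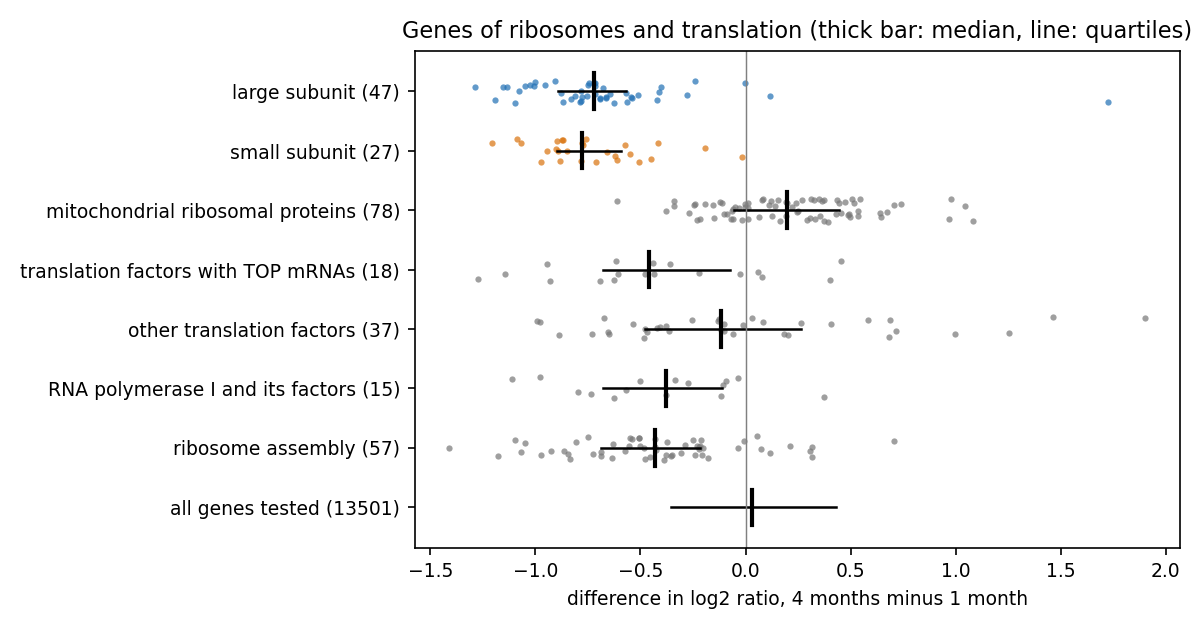
Difference in log2 ratio, 4 months minus 1 month (horizontal axis), of each gene of 7 lists, with the median (thick bar) and quartiles (line), and of all 13501 genes tested, drawn without points. The medians are -0.72 and -0.78 for the large and small subunit, 0.20 for mitochondrial ribosomal proteins and 0.03 for all genes.

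Lists of known controllers held few genes each, to be read against the 3.06% lower and 4.19% higher over all genes. Of 11 genes of the Myc and Mxd network, which drives ribosome production in growing cells, Mycn fell by 3.89 (limma adjusted p = 0.00450) and Mycl by 1.503 (0.0138), or 18.2% of the list, while Myc itself differed by -0.03. Mycn is also counted among the hair matrix regulators below. Of 15 genes of the TOR kinase and its controls only Sesn3 was called (6.67%), lower by 1.27 (0.0292). Of 18 p53 targets, Trp53inp1 fell by 1.39 and Phlda3 and Eda2r rose by 1.39 and 1.76 (limma adjusted p = 0.0196, 0.0204 and 0.0333).

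Markers of other cells moved with age beside the ribosomal protein genes. Of 30 cell division genes all lay below 0 and 23 fell (median -1.63), with sample medians between -2.85 and -1.86 at 4 months and between -1.17 and -0.44 at 1 month. Of 14 hair matrix regulators 9 fell (median -2.57), and of 6 melanocyte genes 3 fell (median -1.496). Hair matrix genes mark the growing follicle. Their sample medians lay between -0.07 and 0.01 at 4 months and between 1.31 and 1.68 at 1 month. Epidermal (16), fat (10), fibroblast (12), macrophage (11) and B cell (6) lists had 1 called gene in all, the epidermal gene Sbsn, which was higher. The macrophage list nevertheless lay above 0 in 10 of 11 genes (median 0.96, 5 at an unadjusted p under 0.05, lowest limma adjusted p = 0.0512), with sample medians between 2.81 and 3.63 at 4 months and between 1.97 and 2.87 at 1 month. The fibroblast list had a median of -0.38, with 7 of 12 genes below 0 and 2 lower at an unadjusted p under 0.05. The part of these lists in the ribosomal protein differences was not tested. The epidermal list, which checks the labelled tissue, had sample medians between 4.60 and 6.10 at 4 months and between 4.51 and 6.20 at 1 month.

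The order of the samples within an age was compared between the cell division and ribosomal protein medians, without a test. At 4 months, sample 4 was highest in both (-1.86 for cell division and -0.64 for ribosomal proteins). Sample 3 came next in both, and samples 1 and 2 changed places. At 1 month, sample 2 was highest in cell division (-0.44) and lowest in ribosomal proteins (-0.11), while sample 3 was highest in ribosomal proteins (0.05) with a cell division median of -1.06. The 1-month ribosomal protein medians lay close together, between -0.11 and 0.05, so their order carries little weight. With the mean of the cell division list as a covariate, the median over the 74 genes was -0.37, 56 lay below 0 and none passed, nor did any of the 13501 genes. At an unadjusted p under 0.05, 1 ribosomal protein gene was lower in that fit. The 14 called genes stayed below 0 there, between -1.47 for Rpl23a and -0.32 for Rps10. The cell division medians did not overlap between ages, so this fit cannot separate cell division from age. The part of cell division in the ribosomal protein differences was not tested.

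**Figure D5:**
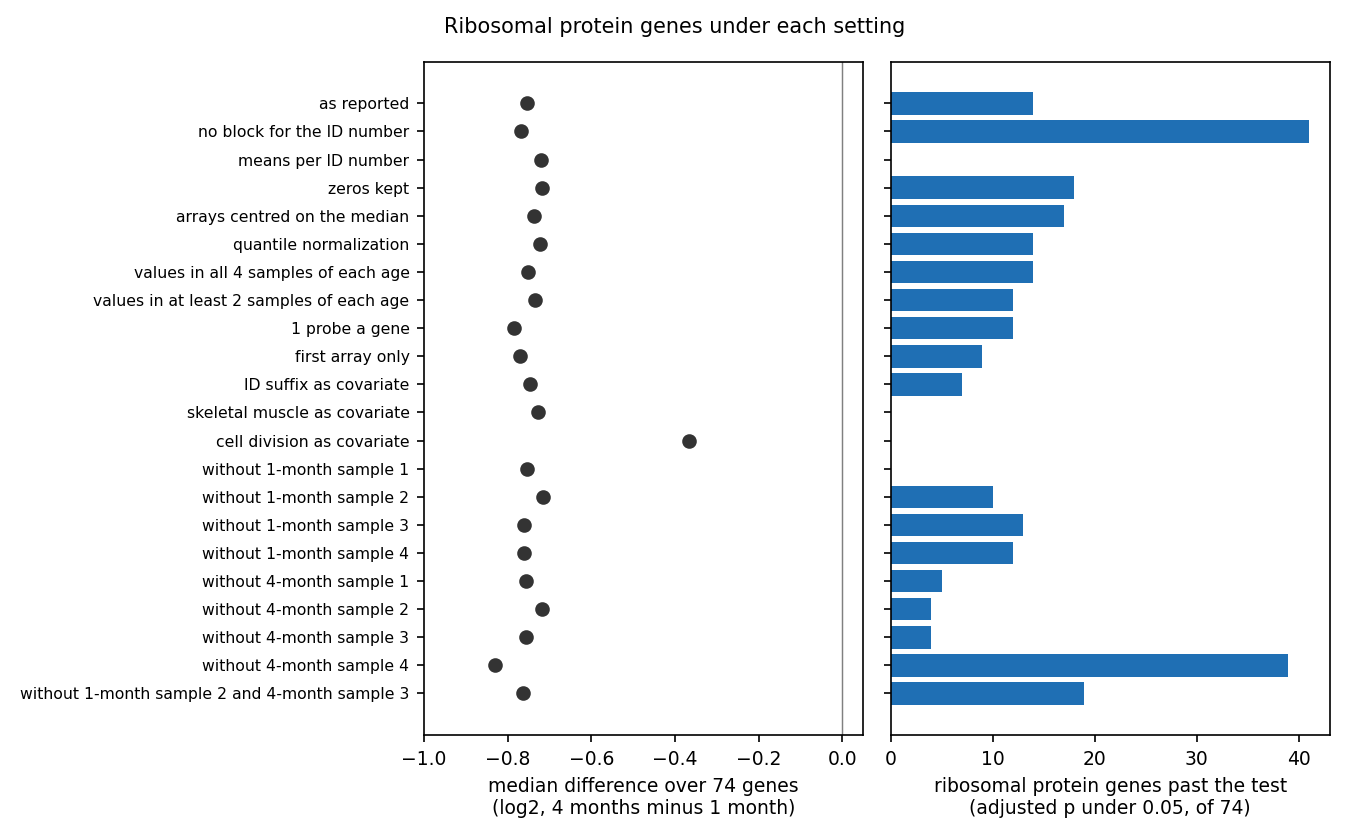
Median difference over the 74 ribosomal protein genes on the log2 scale, 4 months minus 1 month (left), and the number of them past the limma test (right), for the reported fit and 21 other settings. The median lies between -0.83 and -0.72 in all settings except the cell division covariate (-0.37), while the count runs between 0 and 41.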

How the data were processed

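The deposited values are log2 ratios made by the authors from 2-colour arrays; the values pointed to base 2, and how they were background-corrected and normalized is not stated in the labels. Per the labels, skin RNA was extracted with a kit for fibrous tissue and labelled with Cy3, and the reference with Cy5. An exact 0, held by 26.0% to 47.4% of an array's probes, was read as not measured. The sign was turned so that skin genes are positive. The B cell list, meant to help set the direction, lay above 0 on 6 arrays and below on 4 over all its measured probes, and decided nothing. Only 6 of its 12 genes were tested between ages. Their sample medians lay below 0, between -1.79 and -0.93 at 4 months and between -1.825 and -0.07 at 1 month.

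Of the probes, 32664 had 1 gene symbol and were used. Both arrays of a sample were averaged. Probes of a gene were averaged, and 2 missing values of ribosomal protein genes were filled from a fit of probe and sample effects. Ages were compared with limma 3.58.1 (statmod 1.5.0, R 4.3.3), with the ID number as a random block (duplicateCorrelation, 0.313) and Benjamini-Hochberg adjustment over 13501 genes at 0.05. The number of arrays limits the precision. Between the arrays of 1 sample, ribosomal protein probes differed by a median of 0.277 (4-month sample 2) and 0.301 (1-month sample 1).

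Named genes were every called gene, the 5 largest and 5 smallest differences of each subunit, paralogs, genes with a skin or blood phenotype, stalk proteins and Rps6. Members and lists were chosen with earlier results of these data known. The paralog test was added after the data were seen. The fit was tested on simulated data, with changes larger than that of any ribosomal protein gene here. That test does not show how the fit works at the sizes reported. Promoters came from RefSeq.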

Additional observations from a re-analysis of the deposited data

Results flagged for a closer look

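In 9 of 92 groups of 4 samples, taken over the 44 named ribosomal protein genes and the medians of both subunits, 1 sample stood apart from the other 3 by more than Dixon's 95% critical value. Chance flags about 1 in 20 groups. At 4 months, Rpl29 was -0.0878 in sample 4, against -0.785 to -0.742 in the others, and Rps2 was -0.450 in sample 4, against -1.18 to -1.15. Rpl23a was 0.0140 in 4-month sample 1 (others -0.535 to -0.473), Rpl32 was -1.54 in sample 2 (others -1.11 to -1.06), and Rpl24 was -1.26 in sample 3 (others -0.911 to -0.905). At 1 month all flagged values were in sample 2. Rpl15 was -0.610 there (others 0.081 to 0.151), Rps19 was -0.334 (others 0.067 to 0.087), Rps27 was -0.170 (others 0.297 to 0.385), and Rpl38 was 0.746 (others -0.031 to 0.101). No cause of these values was tested.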

How the results depend on the processing

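No paired analysis was possible because no ID number occurs at both ages and replicate numbers here follow accession order. The ribosomal protein genes that differed between ages numbered 14; they numbered 41 with no term for the ID number, 0 with means per ID number (39 lower at an unadjusted p under 0.05), 9 with the first array only, 7 with the ID suffix as a covariate, 0 with skeletal muscle and 0 with cell division as a covariate, and 0 to 39 with 1 sample left out. The genes that differed between ages (979 of all tested) numbered 2022, 0, 581, 141 and 0 in those settings, leaving out the first-array one, and 157 to 2172 with 1 sample left out. The ribosomal protein probes that differed between ages numbered 52 without the block, 23 with zeros kept and 0 to 46 with 1 sample left out. The median difference of large-subunit genes was -0.34 and the median difference of small-subunit genes -0.43 with the cell division covariate, and the large-subunit median lay between -0.82 and -0.70 with 1 sample left out. Signs turned for genes near 0. Rplp2 was 0.0023 by ID means, 0.015 centred, 0.085 after quantile normalization, 0.046 with the suffix, 0.064 with muscle, 0.11 with cell division and -0.10 to 0.18 with 1 sample left out. Rps2 was 0.018 by ID means, 0.10 after quantile normalization, 0.0016 with the first array, 0.075 with muscle, 0.89 with cell division, 0.030 without 1-month sample 2 and 4-month sample 3 (chosen after seeing the data) and -0.22 to 0.056 with 1 sample left out. Rpl21 was -0.44 with 1 probe, -0.24 with muscle, -0.0067 with cell division and -0.062 to 0.27 with 1 sample left out. With cell division as a covariate, where 56 of the 74 genes lay below 0, the sign also turned, among the named genes, for Rpl11 (0.51), Rpl28 (0.86), Rpl36al (0.49), Rpl39l (1.22), Rpl5 (0.29), Rpl8 (0.24), Rplp1 (0.30), Rps14 (0.30), Rps4l (0.18) and Rpsa (0.16). The cause was not tested. In all 21 settings 55 of the 74 genes stayed below 0, the 14 called ones among them.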
